A study of Mus musculus with 8 samples.

Results

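The data describe 10 genes that encode RNA-binding regulators of germ cells, namely Ddx4, Dnd1, Nanos1, Nanos2, Nanos3, Dazl, Boll, Lin28a, Lin28b and Cpeb1. They were chosen by name, as the non-control array probes whose gene name is one of these (Lin28a is written Lin28 on the array). All 10 were found, with 15 probes, among 27670 gene names and 41174 probes. Gene expression was measured in testes of male mice at postnatal day 8, with 4 wild type and 4 VRK1-deficient samples, each described as a biological replicate and hybridized to its own 1-color Agilent array. The VRK1-deficient mice carry a gene trap insertion in an intron of Vrk1, which encodes a kinase of the cell nucleus. The study describes them as hypomorphic, since some full-length Vrk1 transcript is still made. The insertion is not limited to a cell type. RNA came from whole testes, so fewer germ cells and less RNA per germ cell cannot be told apart in any value below. That each sample is 1 animal is not stated, so the p-values measure the spread between these samples.

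Germ cells control much of their development at the level of mRNA, by storing transcripts, shortening or lengthening their poly(A) tails and choosing when they are translated. DDX4 (Vasa) is a helicase of the germ granule found in germ cells of nearly all animals. DAZL and BOLL bind 3′ UTRs and promote translation, NANOS proteins and DND1 recruit deadenylases to target mRNAs, LIN28A and LIN28B block the maturation of let-7 microRNAs, and CPEB1 directs cytoplasmic polyadenylation. At postnatal day 8 the germ cells of the testis are mostly spermatogonia, with the earliest spermatocytes appearing, beside Sertoli, peritubular and interstitial cells.

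A level below is the log2 of a probe's signal after the array's own 75th percentile is taken away, so that 0 is that percentile, and a change is the level in VRK1-deficient minus that in wild type testes. Levels of different probes are not compared. All tests across probes used limma on the 26948 probes that 4 or more of the 8 arrays measured well above background, and a gene with several probes is represented by its brightest. Vrk1 itself had levels of -0.20 to 0.59 on the wild type arrays and -4.17 to -3.58 on the VRK1-deficient arrays (change -4.00, standard error 0.21, limma adjusted p = 0.000135). Between 63.6% and 69.5% of spots were well above background on each array, and the number of arrays limits the precision. Slide 1 held replicates 1 and 2 and slide 2 held replicates 3 and 4 of both genotypes, with wild type and VRK1-deficient samples at different positions of each slide, so position and genotype cannot be told apart. Wild type replicate 1 had the lowest germ cell signal of the wild type arrays. The mean level of 6 germ cell genes that are not among the 10 (Tdrd1, Mael, Piwil2, Tex101, Sall4 and Rnf17) was 0.72 on it and 1.65 to 2.05 on the other 3, against 0.18 to 0.86 in VRK1-deficient testes. The mean level of 9 Sertoli cell genes was 2.85 on wild type replicate 1, 2.17 to 2.47 on the other wild type arrays and 2.62 to 2.92 in VRK1-deficient testes. Of these 9, 7 were higher and 2 lower in VRK1-deficient testes, and none had a limma adjusted p under 0.05. Rhox5 went against the mean, with its lowest wild type level, 0.91, on replicate 1 and a change of -1.08.

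The 3 probes below hold an open reading frame and are read here as coding sequence, without a genome annotation of the array's build. They are shown because the results return to them, and the first and second hold a known motif of the protein. Coordinates come from the array files and refer to mouse build mm7. In the Nanos3 probe, capitals mark the codons of a cysteine pair of the zinc finger that NANOS proteins use to bind RNA. In the less bright probe of Boll, which crosses an intron, capitals mark the codons of the conserved RNP-1 element of its RNA recognition motif. The last is a less bright probe of Lin28b, in which no motif was searched for.
Nanos3 (chr8:82758695-82758754, - strand): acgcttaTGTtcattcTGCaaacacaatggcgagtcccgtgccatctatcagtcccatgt
Boll (chr1:55596199-55602970, - strand): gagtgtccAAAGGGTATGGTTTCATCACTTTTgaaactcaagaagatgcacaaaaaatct
Lin28b (chr10:45232798-45232857, - strand): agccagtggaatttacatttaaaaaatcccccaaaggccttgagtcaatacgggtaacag

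Of the 10 genes, 9 had a lower mean level in VRK1-deficient testes and 1, Nanos2, a higher one. At a limma adjusted p under 0.05, 3 were changed, all of them lower: Lin28a, Lin28b and Cpeb1. Among all tested probes, 3.66% passed that threshold, 1.99% as lower and 1.67% as higher. The unadjusted limma p was under 0.05 for all 10 genes, against 28.8% of all tested probes. The methods' t-test on the same values gave a p of at most 0.05 for 8 of the 10 (26.2% of all tested probes), and none passed after Benjamini-Hochberg (0.601%). Of the 10, 5 genes, Boll, Nanos1, Lin28a, Lin28b and Cpeb1, had a log2 change of -1 or below, a size reached by 2.69% of tested probes. The median change of the 10 genes was -1.04, that of all tested probes was 0.04, and the 6 other germ cell genes differed by -1.05 in their mean level. The study listed 5 of the 10 genes (Dazl, Boll, Lin28a, Lin28b and Cpeb1) as lower on these same arrays, so their direction is not independent evidence. Of the other 5, 4 were lower and none had a limma adjusted p under 0.05.

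**Figure D1:**
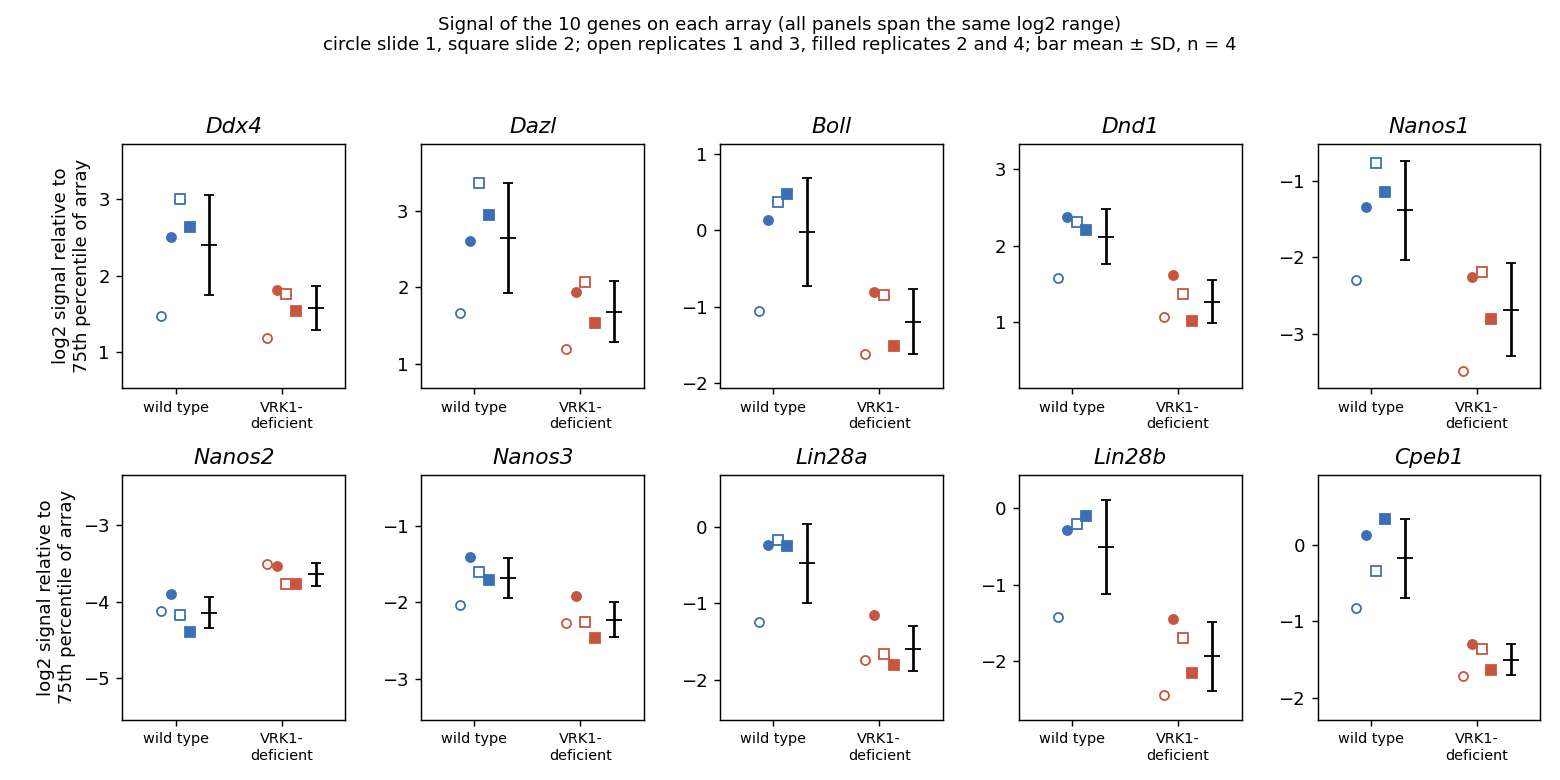
Level (log2, with 0 at the array's 75th percentile) of each of the 10 genes, with 1 point per array, wild type in blue and VRK1-deficient in red. Bars are the mean ± SD (n = 4). Wild type replicate 1 (open blue circle) is the lowest wild type array for all 9 genes that were lower, and Nanos2 is the only gene of the 10 with its VRK1-deficient arrays above.

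Ddx4, whose transcript is made by germ cells in general at this age, had levels of 1.48, 2.51, 3.01 and 2.63 on wild type replicates 1 to 4. On VRK1-deficient replicates 1 to 4 they were 1.19, 1.82, 1.76 and 1.53. Wild type replicate 1 lay within the VRK1-deficient range, and the other 3 wild type arrays lay above it. Between genotypes it moved by -0.83 (standard error 0.30, limma adjusted p = 0.117), a 1.78-fold lower signal that did not pass the test. Its probe (A_51_P223569) lies on chromosome 13 from 109754306 to 109754365.

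Dazl, which germ cells need to become competent for meiosis, was measured by 2 probes. With the brighter one (A_52_P271166, chromosome 17 from 48427556 to 48427615), the levels were 1.67, 2.61, 3.36 and 2.94 on the wild type arrays and 1.19, 1.94, 2.07 and 1.53 on the VRK1-deficient arrays. The overlap again came from wild type replicate 1 alone. The log2 difference was -0.96 (standard error 0.35, limma adjusted p = 0.112). The other probe changed by -1.02 (limma adjusted p = 0.0786).

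Boll, the family member that is needed later, in spermatid development, gave levels of -1.05, 0.14, 0.37 and 0.48 in wild type testes. The VRK1-deficient levels were -1.61, -0.81, -0.84 and -1.51. Here too, 3 wild type arrays were above all VRK1-deficient arrays and wild type replicate 1 was among them. Between genotypes it moved by -1.18 (standard error 0.35, limma adjusted p = 0.0748), a 2.26-fold lower signal, with a probe (A_51_P239214) on chromosome 1 from 55547419 to 55547478. The probe across the RNP-1 codons shown above changed by -1.24 (limma adjusted p = 0.0615). Within each array, the difference Dazl minus Boll moved by 0.21 between genotypes (exact two-sided permutation test over 70 arrangements, p = 0.171, Benjamini-Hochberg over 3 pairs of related genes 0.171), so unequal change of this pair was not shown.

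Dnd1 encodes an RNA-binding partner of NANOS2 that protects germ cells from loss and from teratoma formation. Its levels were 1.59, 2.38, 2.31 and 2.21 in wild type and 1.07, 1.62, 1.37 and 1.01 in VRK1-deficient testes. Only wild type replicate 1 and VRK1-deficient replicate 2 overlapped, by 0.03. The log2 difference was -0.85 (standard error 0.21, limma adjusted p = 0.0544).

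The 3 NANOS genes had changes of different sign, none of them past the test. Nanos1, the family member best known from the nervous system, had levels of -2.30, -1.34, -0.78 and -1.15 in wild type and -3.49, -2.26, -2.19 and -2.81 in VRK1-deficient testes with its brighter probe (A_52_P231232, chromosome 19 from 60682339 to 60682398). All wild type arrays but replicate 1 were above every VRK1-deficient array. Between genotypes it moved by -1.30 (standard error 0.37, limma adjusted p = 0.0704), and the other probe changed by -0.86 (limma adjusted p = 0.140).

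Nanos3, which keeps primordial germ cells alive and is later made in spermatogonia, had levels of -2.03, -1.40, -1.61 and -1.71 in wild type and -2.27, -1.92, -2.25 and -2.47 in VRK1-deficient testes. The genotypes overlapped by 1 array on each side. The log2 difference was -0.54 (standard error 0.17, limma adjusted p = 0.0818). In the coding probe shown above, the signal in VRK1-deficient testes was 68.7% of that in wild type.

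Nanos2, which maintains spermatogonial stem cells and holds back meiotic entry in the male, was the gene with the opposite sign. Its levels were -4.13, -3.90, -4.18 and -4.39 in wild type and -3.50, -3.53, -3.77 and -3.77 in VRK1-deficient testes. Every VRK1-deficient array was above every wild type array, by at least 0.12, as was so for 9.4% of all tested probes. Between genotypes it moved by 0.50 (standard error 0.14, limma adjusted p = 0.0633), a 1.42-fold higher signal that did not pass the test. Without scaling between arrays it was 0.33 (limma adjusted p = 0.500), while the median of all probes moved to -0.14. Its probe (A_52_P624495) lies on chromosome 7 from 16670796 to 16670855, and all 8 arrays measured it well above background. Wild type replicate 1 was not at an end of the wild type range for this gene. Among 7 measured genes of undifferentiated spermatogonia, 5 were higher and 2 lower, with a median change of 0.21. Bcl6b alone passed, with a change of 0.61 (limma adjusted p = 0.0497). The others were Etv5 at 0.66, Gfra1 at 0.54, Id4 at 0.21, Pou5f1 at 0.10, Foxo1 at -0.56 and Neurog3 at -0.93. Zbtb16 (Plzf), also on this list, had no probe. Lin28a, which marks undifferentiated spermatogonia too, is not on the list and changed by -1.12 (limma adjusted p = 0.0498). The numbers of higher and lower genes therefore hold for this list only. The 4 measured genes of differentiating spermatogonia were all lower, with a median change of -1.16, and 1 of them passed. By qRT-PCR the study reported Plzf, Pou3f1, Pou5f1, Ret and Ngn3 (Neurog3) as reduced, and it held that the array could not detect these genes because the cells are rare. The probes used here for Pou5f1 and Neurog3 were, however, well above background on all 8 arrays. Of these, Neurog3 was lower here too, and Pou5f1 was not.

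The difference between Nanos2 and Nanos3 was measured within each array, where scaling cancels. Nanos2 minus Nanos3 ran from -2.68 to -2.10 in wild type testes and from -1.62 to -1.23 in VRK1-deficient testes. The genotypes were apart on this measure with wild type replicate 1 included. The difference between genotypes was 1.05 (p = 0.0286 by the exact permutation test, the smallest that 4 against 4 arrays can give, and 0.0857 after Benjamini-Hochberg adjustment over the 3 pairs). The pair was thus apart before but not after adjustment. With normexp background correction the difference was 0.67, with the same exact permutation p.

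Lin28a marks undifferentiated spermatogonia, and its levels were -1.25, -0.24, -0.17 and -0.25 in wild type and -1.74, -1.16, -1.67 and -1.80 in VRK1-deficient testes. The lowest wild type array and the highest VRK1-deficient array overlapped by 0.09. The log2 difference was -1.12 (standard error 0.26, limma adjusted p = 0.0498), a 2.17-fold lower signal just inside the threshold. Its probe (A_52_P294305) lies on chromosome 4 from 133382045 to 133382104.

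Lin28b, the paralog that acts mainly in the nucleus (brightest probe A_52_P676861, chromosome 10 from 45189273 to 45189332), had levels of -1.42, -0.28, -0.20 and -0.10 in wild type and -2.44, -1.44, -1.69 and -2.16 in VRK1-deficient testes. The genotypes did not overlap, but wild type replicate 1 was only 0.03 above the highest VRK1-deficient array. Between genotypes it moved by -1.43 (standard error 0.32, limma adjusted p = 0.0492), to 37.0% of the signal in wild type. In the less bright probe shown above, the levels were -4.43, -3.56, -3.98 and -3.44 in wild type and -5.42, -4.94, -5.19 and -5.89 in VRK1-deficient testes. That probe was well above background on 4 wild type and 2 VRK1-deficient arrays (replicates 2 and 3), so its values on VRK1-deficient replicates 1 and 4 are not firm levels. With all 8 values its change was -1.51 (limma adjusted p = 0.0407), and the genotypes did not overlap. The remaining probe was well above background on 2 wild type arrays and no VRK1-deficient array and was not tested. Lin28a minus Lin28b moved by 0.32 between genotypes (exact two-sided permutation test, p = 0.114, Benjamini-Hochberg 0.171).

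Cpeb1, needed for synaptonemal complex mRNAs to be translated, had levels of -0.83, 0.12, -0.34 and 0.33 in wild type and -1.72, -1.29, -1.36 and -1.64 in VRK1-deficient testes. It had the widest gap between genotypes of the brightest probes of the 10 genes, 0.47. The log2 difference was -1.33 (standard error 0.24, limma adjusted p = 0.0423), a 2.51-fold lower signal. Its probe (A_52_P462296) lies on chromosome 7 from 77220184 to 77220243. Genotypes did not overlap for Lin28b and Cpeb1 among the 9 lower genes, and 7.31% of all tested probes were lower without overlap.

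**Figure D2:**
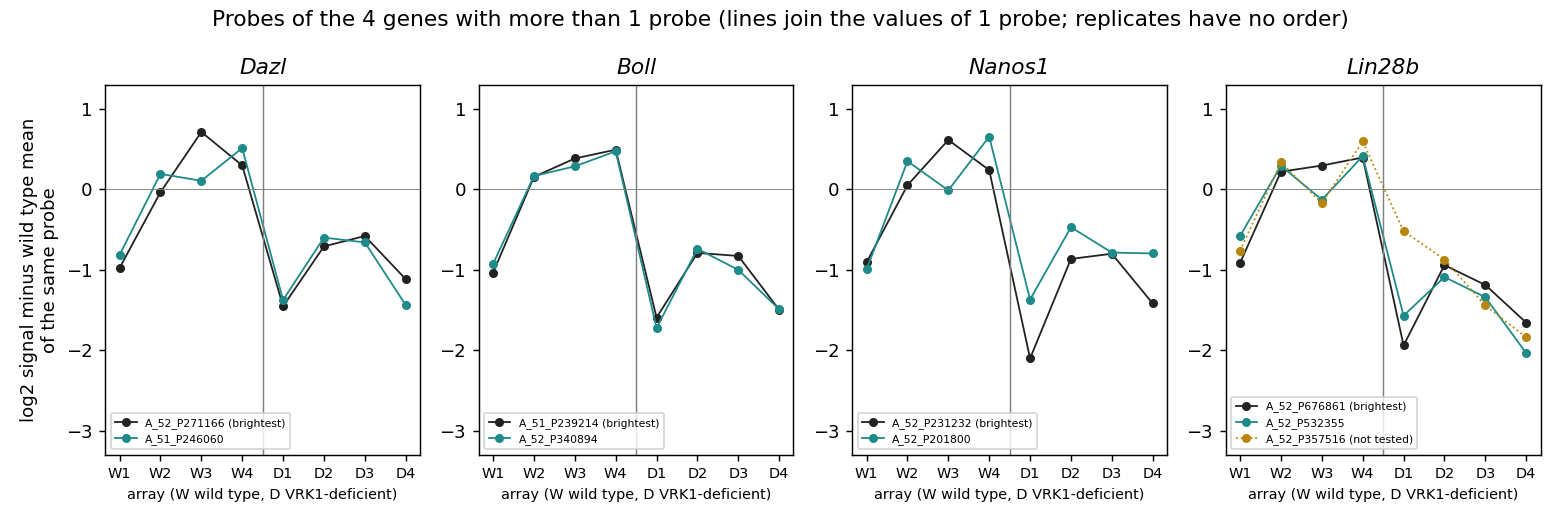
Probes of the 4 genes with more than 1 probe, as log2 signal minus the wild type mean of the same probe, by array; lines join the values of 1 probe. The tested probes of Boll lie close together, with changes of -1.18 and -1.24, whereas those of Nanos1 differ more, at -1.30 and -0.86.

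Every one of the 10 genes moved the same way within slide 1 and within slide 2, and each moved further within slide 2. Ddx4 changed by -0.49 within slide 1 and -1.17 within slide 2, Boll by -0.75 and -1.60, Lin28a by -0.71 and -1.53, Lin28b by -1.09 and -1.77 and Cpeb1 by -1.15 and -1.50. Nanos2 was nearly the same in both, at 0.49 and 0.51. Wild type replicate 1 is on slide 1, and the part of slide and of that array in this difference was not tested.

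**Figure D3:**
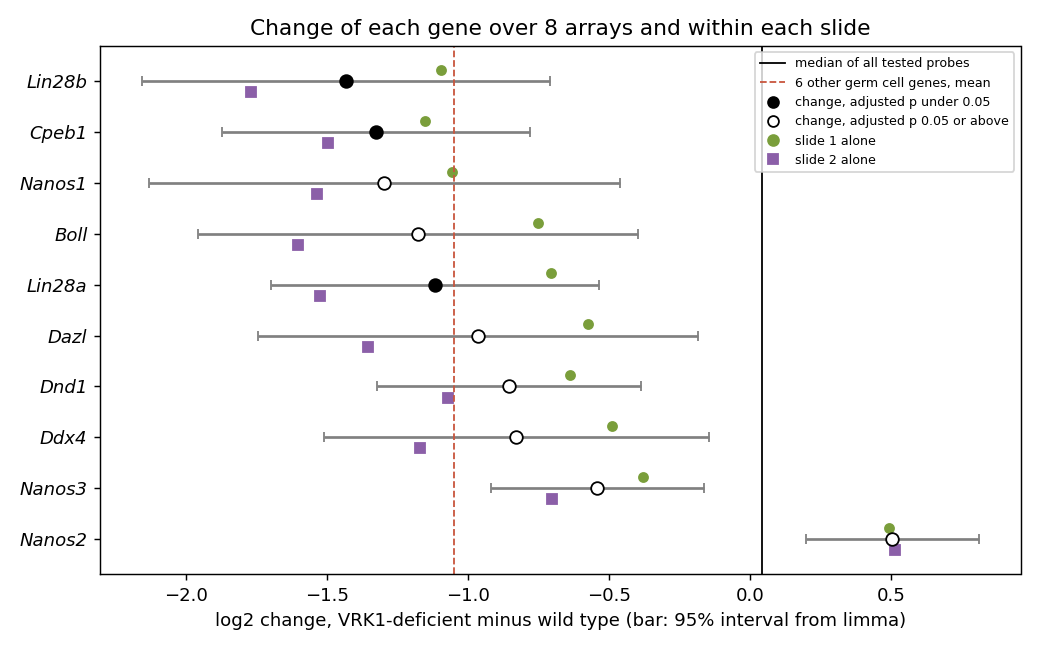
Log2 change of each gene (VRK1-deficient minus wild type) with its 95% interval from limma over 8 arrays, and the change within each slide. Slide 2 lies further from 0 than slide 1 for all 10 genes, and the 95% intervals of the 9 lower genes lie wholly below the 0.04 median of all tested probes.

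The calls depended on single arrays. Without wild type replicate 1, all 10 genes passed (9 lower and Nanos2 higher, limma adjusted p of at most 0.0340), as did 28.4% of all tested probes. When 1 of the other 7 arrays was dropped instead, no gene of the 10 passed, with limma adjusted p between 0.0620 and 0.273. Lin28b changed by -1.74 without wild type replicate 1 and by -1.60 to -1.26 without another array, Cpeb1 by -1.54 and by -1.40 to -1.16, Lin28a by -1.37 and by -1.26 to -1.01, and Ddx4 by -1.14 and by -0.91 to -0.63. The directions of all 10 genes stayed the same in all 8 cases.

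With Ddx4 taken as a general germ cell transcript, each of the other 9 genes was also measured relative to Ddx4 on the same array. Whether Ddx4 follows the germ cell content of a sample was not tested. In this comparison, no gene of the 9 passed (3 of 26947 probes did, 0.0111%), with 7 lower and 2 higher. At an unadjusted limma p under 0.05 there was 1, Nanos2, and the methods' t-test, unadjusted, gave 2 lower and 1 higher. The share of all probes at these unadjusted thresholds was not counted, so nothing is read from these counts. The spread of Ddx4 enters every value, and the standard errors were 0.32 to 0.40. Taking away Ddx4, which itself changed by -0.83, also moves the change of every probe up by the same amount. A gene with no change of its own therefore comes out higher on this scale. Relative to Ddx4, Dnd1 changed by -0.02 (standard error 0.34) and Dazl by -0.14 (standard error 0.32). Lin28a (-0.29), Boll (-0.35), Nanos1 (-0.47), Cpeb1 (-0.50) and Lin28b (-0.60, limma adjusted p = 0.129) had larger negative values and Nanos3 a positive one (0.29), none of them past the threshold. The own change of Nanos3 was -0.54.

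Lin28b relative to Ddx4 was at -2.89, -2.79, -3.21 and -2.74 on the wild type arrays and at -3.63, -3.26, -3.45 and -3.69 on the VRK1-deficient arrays. Its genotypes did not overlap, and wild type replicate 1 was here among the other wild type arrays. Nanos1 relative to Ddx4, with its brighter probe, ran from -3.85 to -3.77 in wild type (SD 0.03) and from -4.68 to -3.96 in VRK1-deficient testes, also without overlap. With the other probe of Nanos1 the change relative to Ddx4 was only -0.03 (limma adjusted p = 0.948), so the 2 probes differ here. Of all probes tested relative to Ddx4, 0.742% were lower without overlap. Nanos2 relative to Ddx4 was at -5.60, -6.41, -7.18 and -7.02 in wild type and at -4.69, -5.35, -5.54 and -5.30 in VRK1-deficient testes. It was higher by 1.33 (standard error 0.40, limma adjusted p = 0.0766) and without overlap, as for 7.29% of probes. The own change of Nanos2 was 0.50, and the rest of this difference is the fall of Ddx4.

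**Figure D4:**
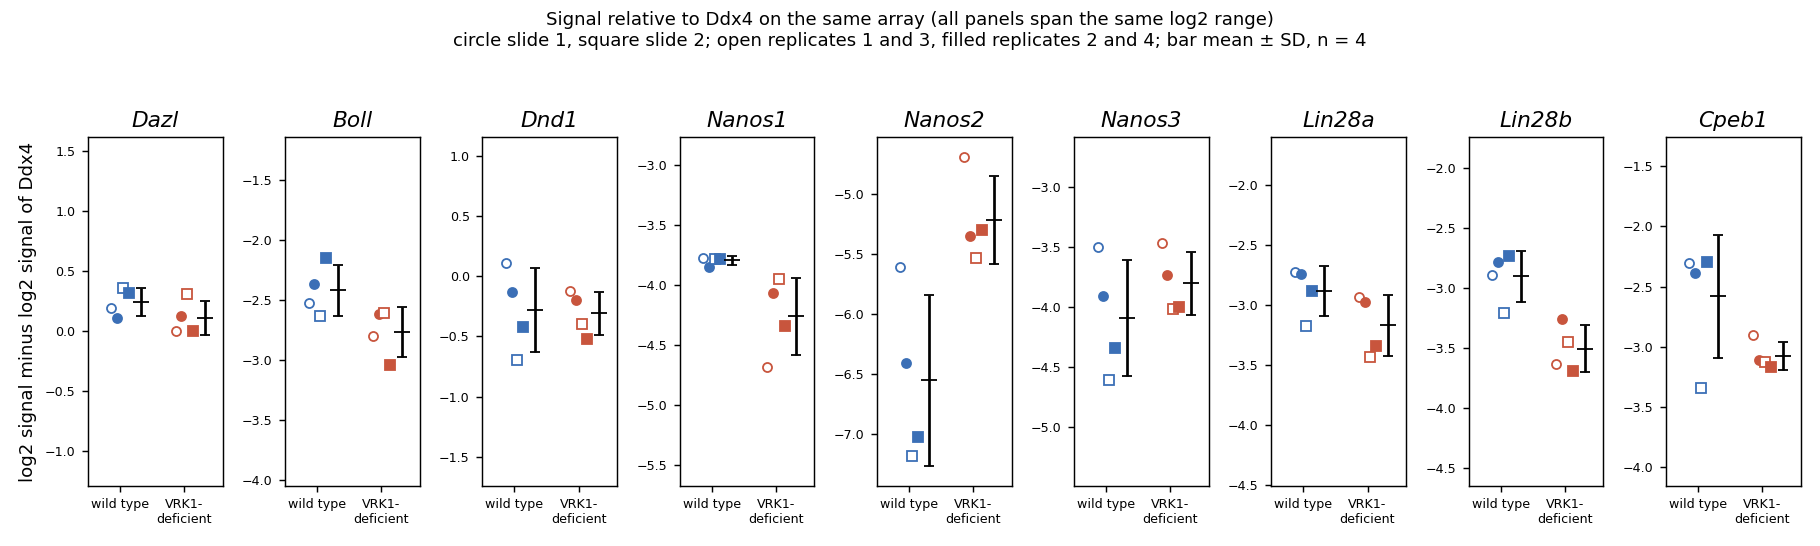
Log2 signal of 9 genes minus that of Ddx4 on the same array, with 1 point per array, wild type in blue and VRK1-deficient in red, and mean ± SD (n = 4). The genotypes are apart for Nanos1, Nanos2 and Lin28b and overlap for the other 6 genes.

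The profiles of the 10 genes over the 8 arrays, each centered on its own mean, were compared by the root mean square difference on the log2 scale, as a description. The nearest pair was Ddx4 and Dazl (0.13), followed by Boll and Lin28b (0.16) and Dnd1 and Lin28a (0.18). Nanos2 was 0.56 to 1.10 from every other gene. Among all other named genes, the profile nearest to Ddx4 was that of Stard4 (0.06), to Dazl that of Cfap53 (0.08), to Boll that of Syce1 (0.06), to Dnd1 that of Apba2 (0.07) and to Nanos1 that of 1700018B08Rik (0.07). For Nanos2 it was Gpalpp1 (0.07), for Nanos3 Twf1 (0.06), for Lin28a Bmi1 (0.09), for Lin28b Tdrd9 (0.07) and for Cpeb1 Aurkc (0.14). Syce1 encodes a synaptonemal complex protein and Tdrd9 a helicase that represses transposons in germ cells.

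Genes that act with the 10 were described by lists drawn up from general knowledge. Of 11 genes of the PUMILIO and CCR4-NOT machinery that NANOS and DND1 proteins recruit, none passed limma's adjusted threshold (2 had an unadjusted p under 0.05), 8 were higher and 3 lower, and the median change was 0.09, from Cnot3 at -0.12 to Cnot6 at 0.43. Of 12 genes of the CPEB family and cytoplasmic polyadenylation, none passed either (4 at an unadjusted limma p under 0.05). Among all tested probes, 28.8% had an unadjusted limma p under 0.05, so nothing is read from these 2 counts. Their median was -0.14, from Cpeb4, a paralog of Cpeb1, at -0.72 (limma adjusted p = 0.0886) to Sympk, a scaffold of the polyadenylation machinery, at 0.43.

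Of the LIN28 and let-7 pathway, 11 of 12 genes were measured (Trim71 had no probe), with a median change of -0.04. Dicer1, the enzyme that cuts microRNA hairpins, was the only one of these to pass, with a change of -0.75 (limma adjusted p = 0.0412). Its levels were 1.31 to 1.85 in wild type and 0.71 to 0.80 in VRK1-deficient testes, without overlap. Dis3l2, an exonuclease that degrades uridylated precursors of let-7, had the largest positive change, 0.47. Of 16 other RNA-binding proteins of germ cells, 15 were measured (Rbm46 had no probe), with 11 lower, 4 higher and a median of -0.44. Adad2 alone passed, with a change of -1.03 (limma adjusted p = 0.0497), and Tial1 had the largest positive change, 0.53 (limma adjusted p = 0.0684). Both calls were lost when any array other than wild type replicate 1 was left out (limma adjusted p 0.0518 to 0.147 for Dicer1 and 0.0802 to 0.152 for Adad2). Of 7 mRNAs described as bound by DAZL, CPEB1 or NANOS2, none passed and all 7 were lower, with a median of -1.05. They ran from Stra8, which is required for meiotic entry, at -1.48 to Sohlh2 at -0.52. At an unadjusted limma p under 0.05 there were 6, against 28.8% of all tested probes. The 6 other germ cell genes described above were also all lower, with a median of -1.08, and all 6 were under that threshold. A fall particular to the bound mRNAs was therefore not shown.

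Promoter sequence was examined for what the genes share that their choice did not use. RefSeq promoter windows (build GRCm38.p6, 250 bases before to 50 after a start site) were searched for 9 of the 10 genes, with 2 windows for Boll. Windows on the chromosome of Dnd1 were left out, so Dnd1 was not examined. Both strands were searched for CACGTG (E-box), TGACGTCA (CRE) and GGCGGGA (E2F-like). CACGTG was present for 4 of the 9 genes, Ddx4, Boll, Lin28b and Cpeb1. That is 4 of their 10 windows, beside 7.15% of the 32851 promoter windows searched. TGACGTCA was found for none of them and in 1.79% of windows, and GGCGGGA for Ddx4 and Boll and in 11.3% of windows. The 150 bases just before the start site are shown for Ddx4, for Boll, for Lin28b and, as the gene that moved the other way, for Nanos2, with matches in capitals. For Cpeb1, whose match begins 24 bases after the start site, the 30 bases around it are shown. A match describes letters only and shows neither binding nor a cause.
Ddx4 (chr13:112652311-112652460, - strand): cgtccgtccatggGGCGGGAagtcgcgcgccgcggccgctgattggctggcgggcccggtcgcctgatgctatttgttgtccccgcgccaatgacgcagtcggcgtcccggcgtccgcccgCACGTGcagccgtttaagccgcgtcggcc
Boll (chr1:55363754-55363903, - strand): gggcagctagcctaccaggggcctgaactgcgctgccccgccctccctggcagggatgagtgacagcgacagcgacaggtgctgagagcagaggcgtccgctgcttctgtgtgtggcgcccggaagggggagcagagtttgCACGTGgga
Lin28b (chr10:45470202-45470351, - strand): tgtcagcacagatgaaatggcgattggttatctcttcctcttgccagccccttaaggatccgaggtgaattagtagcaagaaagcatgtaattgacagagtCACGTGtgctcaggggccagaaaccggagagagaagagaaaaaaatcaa
Nanos2 (chr7:18987374-18987523, + strand): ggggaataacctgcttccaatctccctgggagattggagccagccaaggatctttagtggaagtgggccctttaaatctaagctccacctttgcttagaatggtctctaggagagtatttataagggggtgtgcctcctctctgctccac
Cpeb1 (chr7:81454717-81454746, - strand): aaaaatagtgccCACGTGtgtgcgcgtccc

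The E-box begins 29 bases before the start site in Ddx4, 9 in Boll and 49 in Lin28b, and the E2F-like match of Ddx4 begins 137 bases before it. The matches do not overlap. The changes of the 4 genes with an E-box ran from -0.83 (Ddx4) to -1.43 (Lin28b), and those of the genes whose windows held none ran from -1.30 (Nanos1) to 0.50 (Nanos2), so the ranges overlap.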

How the data were processed

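Total RNA from mouse testes at postnatal day 8 (4 wild type and 4 VRK1-deficient samples) was labeled with Cy3. The authors hybridized it to 1-color Agilent arrays and, per the submitters' processing notes, used Agilent Feature Extraction 9.5.3.1. The deposited values used here are its processed signals, linear intensity values with background subtracted and no scaling between arrays. Control and outlier spots were left out, log2 values were set relative to each array's 75th percentile, and spots of a probe were averaged. Genotypes were compared with limma 3.58.1 (lmFit, eBayes) in R 4.3.3 with Benjamini-Hochberg adjustment over 26948 probes. Pairs of related genes were compared by an exact permutation test over 70 arrangements. The limma test was checked on simulated data, where 77% of 200 changed probes among 26941 were recovered with 8 false calls. The simulated noise was independent between probes, with no deviation of an array shared by many probes. These figures therefore do not measure how reliable the calls are on the real arrays. Alternatives were quantile normalization, no scaling, normexp, other filters, the mean of all probes, slide and replicate blocks, each slide alone, each array left out in turn, a trend with robust variances, and the methods' t-test.

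The 10 genes and all lists were chosen with earlier results of these data known. The genes named are these 10, Vrk1, the called genes and largest changes of each list, marker genes whose list moves with a result, and the nearest profiles (3 were computed per gene, the first is given). Genome sequence of build mm7 was not used here, so the place of a probe in a coding region or UTR was not looked up, and the 3 probes called coding were read from their own letters. Protein sequences were not used here. Tables were made with Python 3.11.15, pandas 2.3.3, numpy 2.4.6, scipy 1.17.1, matplotlib 3.10.9 and the R package data.table (version 1.17.8).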

Additional observations from a re-analysis of the deposited data

Results flagged for a closer look

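In wild type testes, replicate 1 stood apart from the other 3 arrays for Lin28a, at -1.25 against -0.25 to -0.17, and for Lin28b, at -1.42 against -0.28 to -0.10 (log2, with 0 at the array's 75th percentile). The gap to the nearest array was 0.923 of the whole range for Lin28a and 0.865 for Lin28b, above Dixon's critical value for 4 samples. These were 2 of 20 groups of 4 arrays examined, and chance flags about 1 in 20. The same array was the lowest wild type array for all 9 lower genes. It also had the lowest mean germ cell marker level and the highest mean Sertoli cell marker level of the wild type arrays. The part of these markers in the result was not tested.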

How the results depend on the processing

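The direction of all 10 genes was the same under the 21 alternatives run (210 of 210 values), but the calls were not stable. Against the 3 lower genes reported, limma called 1 with quantile normalization, 5 without scaling, 5 with normexp, 0 with no filter on dim probes, 1 with slide as a block, 0 within slide 1 and 6 within slide 2. The number of all probes called also moved with these settings and is given at the end of this paragraph. Leaving out 1 array at a time gave 0 to 9 lower genes and 0 to 1 higher. The methods' t-test called 7 lower and 1 higher unadjusted and 0 lower after Benjamini-Hochberg. The fit with a replicate block called 8 lower genes. Same-numbered samples correlated at 0.468, 0.0735, 0.188 and -0.138 in their deviations from the group means, and not every sample correlated best with its own number, so the numbers were not taken as pairs. Relative to Ddx4, 1 gene (Nanos2) was called higher with normexp, slide as a block, slide 2 alone, the replicate block and the unadjusted t-test, where none was in the report. The unadjusted t-test also called 2 lower, and leaving out 1 array gave 0 to 1 lower and 0 to 1 higher. The share of all probes called relative to Ddx4 under these alternatives was not counted. The change of Dnd1 relative to Ddx4 turned to 0.015 with normexp and 0.10 within slide 2, and ran from -0.16 to 0.11 with arrays left out. Dazl minus Boll was 0.0696 (exact permutation p = 0.743) with normexp, 0.217 (exact permutation p = 0.0286) with the mean of all probes and 0.15 to 0.32 with arrays left out (exact permutation p = 0.0286 without wild type replicate 3). Lin28a minus Lin28b was 0.20 to 0.42 with arrays left out (exact permutation p = 0.0286 without VRK1-deficient replicate 3). Nanos2 minus Nanos3 was 0.67 with normexp (exact permutation p = 0.0286), 0.87 within slide 1 and 1.22 within slide 2, where 2 arrays against 2 cannot pass the threshold. With normexp the changes of Nanos1 (-0.85), Nanos2 (0.33) and Nanos3 (-0.34) were also over 1.5 times smaller, as were those relative to Ddx4 of Boll (-0.20), Cpeb1 (-0.30), Lin28a (-0.08), Lin28b (-0.34) and Nanos1 (-0.02). Over all 26948 tested probes, limma called 986, and 535 of these were lower. Without scaling 852 of 916 were lower. The count was 797 with quantile normalization and 1412 with normexp. It was 641 with slide as a block, 3 within slide 1, 1061 within slide 2 and 2275 with the replicate block. An intensity trend with robust variances gave 1915, and leaving arrays out gave 3 to 7655. The t-test called 7066 unadjusted and 162 after Benjamini-Hochberg. With no filter, 17 of 41174 probes were called. The median of all probes moved from 0.04 to -0.14 without scaling, 0.12 with normexp and 0.13 with no filter.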
